A study of Oryzias latipes with 6 samples.

Results

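The extracellular matrix and integrin genes are 87 of the 24365 genes in each of the authors' deposited tables. They were chosen by name alone, as every gene called collagen alpha, laminin, nidogen, integrin alpha or beta, ADAMTS, matrix metalloproteinase (MMP), hyaluronan link protein or chondroitin sulfate proteoglycan (CSPG). The set holds 29 collagens, 4 laminins, 3 nidogens, 12 integrin alpha genes, 9 integrin beta genes, 12 ADAMTS genes, 11 MMPs, 5 link proteins and 2 CSPGs. The wording also takes in itgb1bp1, which encodes a protein that binds integrin tails, and the relatives itgbl1 and ADAMTSL2. itgb1bp1 and itgbl1 are counted among the 9 integrin beta genes, and ADAMTSL2 among the 12 ADAMTS genes.

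The matrix of the brain is a mesh that cells secrete around themselves. Collagen IV, laminins and nidogens form the basement membranes of vessels and of the brain surface, while hyaluronan, link proteins and chondroitin sulfate proteoglycans fill the space between neurons and coat their synapses and axons. Integrins are paired alpha and beta receptors that tie cells to these proteins, and the ADAMTS and MMP enzymes cut or process them.

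Whole brains came from 6 adult male F1 Japanese medaka (Oryzias latipes), each 6 months old. The parents of 3 fish had been kept in solvent for 21 days (control lineage), and those of the other 3 in benzo[a]pyrene (BaP), a combustion product, at 1 µg/L for the same time (BaP lineage). Eggs of both lineages were reared in clean water, so exposure of the parents is the only difference that the labels give. Any passage of BaP from the parents to the eggs cannot be read from these data. Nuclei were profiled by droplet-based 3' single-nucleus RNA-seq, and the authors' deposited tables compare the lineages in 14 clusters.

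The authors' deposited tables hold no value for a single fish, so the spread across the 3 fish of a lineage is unknown for every value given here. All 14 comparisons draw on the same 6 fish, so agreement between clusters is not independent evidence. The arithmetic of the deposited values, under assumptions given with the processing, yields 2429 control-lineage and 5083 BaP-lineage nuclei. It gives 69 to 1754 nuclei per cluster, with 14 to 910 from the control lineage, and a mean depth of 684.4 to 1905.0 UMIs (unique molecular identifiers, each 1 captured transcript) per nucleus. The deposited p-values follow the same arithmetic with nuclei as the units, in which case the variation they reflect is that among nuclei rather than that among fish. Levels are in CPM, counts scaled to a common total of UMIs, and counts per lineage are worked out from the deposited values. Bounds in brackets are 95% Poisson intervals, which cover counting error only.

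Clusters are named here by marker genes that are no members, each counted where its level was at least 2 times its mean over the other clusters. Cluster 3 was glutamatergic neuron-like (5 of 6 markers), cluster 5 cerebellar granule neuron-like (6 of 8), cluster 6 oligodendrocyte-like (8 of 9), cluster 9 radial glia-like (9 of 11), cluster 11 Purkinje or eurydendroid neuron-like (9 of 13) and cluster 12 oligodendrocyte progenitor-like (5 of 6). The others keep their numbers. Cluster 1 held 8 of 8 GABAergic markers but was led by the peptide genes oxt and sst1.1. Cluster 7 was led by keratin genes and held 7 of 8 epithelial, 6 of 9 fibroblast, 4 of 6 immune and 4 of 6 skeletal muscle markers. Cluster 8 held 11 of 11 endothelial, 5 of 8 mural and 3 of 4 erythrocyte markers. Cluster 13 was led by slc5a5 and c7b with 4 of 6 plasma protein markers. It also held 3 of 9 fibroblast or meningeal, 3 of 8 mural, 3 of 11 endothelial and 3 of 6 skeletal muscle markers. The fibroblast or meningeal markers summed to 501 CPM in cluster 13 and 161 in cluster 7.

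All 87 genes were detected in at least 1 cluster, and 15 in all 14. Their counts were low. Of 1218 pairs of a member and a cluster, 371 had no count, 696 had 1 to 19 and 151 had 20 or more. In all, 31 members reached 100 counts and 56 did not. Members made up 0.126 to 0.373% of the counts of a cluster. CSPG5, COL25A1, mmp16 and itgb5 together gave 51.7% of the 20388 member counts, and CSPG5 alone 23.6%. These shares are of captured UMIs. How well the transcripts of each gene were captured is not known, so the shares do not rank the genes by transcript number in the nuclei.

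**Figure D1:**
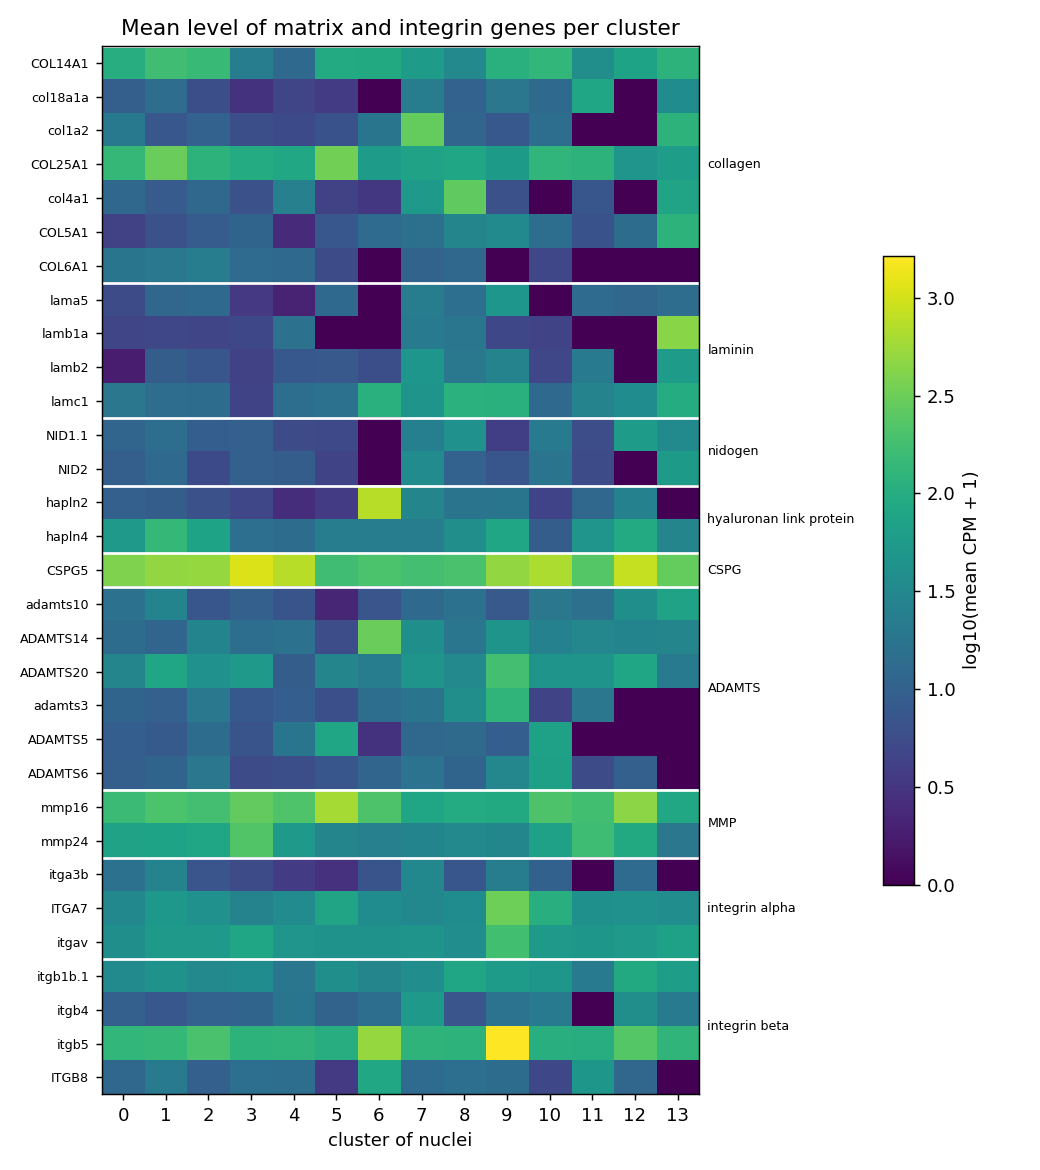
Mean level of the 31 members with at least 100 counts (rows, grouped by family) in the 14 clusters of nuclei (columns), as log10(mean CPM + 1) from the deposited tables. hapln2 stands out in cluster 6, col1a2 in cluster 7, col4a1 in cluster 8, itgb5 in cluster 9 and lamb1a in cluster 13, while CSPG5 and mmp16 are present in all 14.

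The levels that follow are means over both lineages and are given as a description with no test, since the clusters were made from the same expression values. Cluster 7 held the highest level of 27 members, where 11.4% of all genes had their highest level. Of the 29 collagens, 14 were highest there. Cluster 9 held the highest level of 13 members (10.1% of all genes), cluster 13 of 12 (8.49%) and cluster 12 of 9 (10.0%). The member figures are numbers of genes and those in brackets are percentages, so they are not on the same scale. No minimum count was asked for these tallies. Among the collagens highest in cluster 7, col9a1b had 0 control-lineage and 1 BaP-lineage counts there. COL21A1 had 0 and 2, and col28a2a 1 and 1. The members highest in cluster 12 had at most 8 counts each there. In cluster 13, col11a2, ADAMTS8 and ADAMTSL2 had 1 count each. No member was highest in cluster 0 or cluster 4.

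Among the structural collagens, col1a2, the alpha 2 chain of fibrillar collagen I, reached 283 CPM in cluster 7 and 119 in cluster 13, and at most 19.1 in the others. COL10A1, a short-chain collagen of mammalian growth-plate cartilage, was at 79.6 CPM in cluster 7, which was 144 times its mean in the other clusters. col9a3, a chain of cartilage collagen IX, was at 39.1 CPM there, 37.4 times its mean elsewhere. By lineage these levels were uneven. COL10A1 had 1 control-lineage and 42 BaP-lineage counts in cluster 7, and in the control lineage col1a2 was at 44.5 CPM there but at 218 in cluster 13, on 4 counts. In the BaP lineage col9a3 was at 7.98 CPM in cluster 7, on 3 counts, and at 12.8 in cluster 8, on 4. COL25A1, a collagen that spans the membrane of neurons in mammals, was spread over all 14 clusters and highest in cluster 5 (339 CPM) and cluster 1 (300). COL14A1, a collagen that associates with fibrils, was at 101 CPM in cluster 0, 145 in cluster 2 and 133 in cluster 10, with its highest level in cluster 1 (167). COL6A1, a chain of the beaded-filament collagen VI, was at 22.3 CPM in cluster 2.

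The basement membrane genes differed among themselves in where they were highest. Laminins summed to 611 CPM in cluster 13, 188 in cluster 9 and 161 in cluster 8, and nidogens to 270 in cluster 13, 66.7 in cluster 7 and 56.5 in cluster 8. col4a1, a chain of network-forming collagen IV, was at 271 CPM in cluster 8, 17.5 times its mean elsewhere. lamc1, the laminin gamma 1 chain found in most laminins, was at 111 CPM in cluster 8, with 110 in cluster 6, 110 in cluster 9 and 95.9 in cluster 13, so it set no cluster apart. lamb1a, a laminin beta 1 chain, reached 442 CPM in cluster 13 and at most 20.8 in any other cluster. NID1, a nidogen that links laminin to collagen IV, was at 180 CPM in cluster 13 and at most 13.8 elsewhere, on 18 counts in cluster 13. A copy listed as NID1.1 had its highest level, 57.6 CPM, in cluster 12 on 5 counts. Cluster 13 had 69 nuclei, and its laminin values rest on few transcripts, with 45 counts for lamb1a.

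Link proteins hold proteoglycans on hyaluronan. hapln2, which in mammals is found at the nodes of Ranvier of myelinated axons, was at 750 CPM in the oligodendrocyte-like cluster 6. Its next highest level was 28.2 CPM, and its level in cluster 6 was 74.5 times the mean of the others. hapln4, known from perineuronal nets in mammals, was highest in cluster 1 (138 CPM), followed by cluster 12 (92.6). CSPG5, or neuroglycan C, a membrane proteoglycan of the nervous system, was detected in all 14 clusters, from 166 CPM in cluster 5 to 1119 in cluster 3. Its other high levels were in cluster 12 (852 CPM), cluster 4 (741) and cluster 10 (661). CSPG4, known in mammals as the progenitor and pericyte proteoglycan NG2, was at most 18.7 CPM, in cluster 7 on 10 counts.

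The clusters with the highest level of the enzymes were scattered. Of the 11 MMPs, 3 were highest in cluster 8 and 2 each in clusters 7 and 9. Of the 12 genes counted as ADAMTS, 3 were highest in cluster 13 and 2 in cluster 9. The 3 in cluster 13 rest on few counts. adamts10 had 2 control-lineage and 10 BaP-lineage counts there, and ADAMTS8 and the relative ADAMTSL2 had 0 and 1 each. mmp16 and mmp24 encode membrane-bound MMPs known from the mammalian brain. mmp16 was highest in the granule neuron-like cluster 5 (612 CPM) and next in cluster 12 (448), and mmp24 was highest in cluster 3 (221) and next in cluster 11 (166). ADAMTS14, a procollagen N-propeptidase that trims collagen precursors, was at 305 CPM in cluster 6 and at most 44.9 elsewhere. Its relative adamts3 was instead highest in the radial glia-like cluster 9 (125 CPM). ADAMTS20 was also highest in cluster 9 (180 CPM). ADAMTS5, a protease that cuts aggrecan, was highest in cluster 5 (76.1 CPM).

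Several integrin genes had their highest level in radial glia-like nuclei, and as many or more had it in cluster 7. Of the 12 alpha genes, 4 were highest in cluster 9 and 4 in cluster 7. Of the 9 genes counted as beta, 2 were highest in cluster 9 and 3 in cluster 7. The 2 in cluster 9 were itgb5 and itgbl1 (49.9 CPM), and itgbl1 is a relative rather than a beta chain. itgb5, the beta 5 chain that pairs with alpha V to bind vitronectin, was at 1641 CPM in cluster 9, 10.1 times its mean elsewhere, and next highest in cluster 6 (503). itgav, its alpha partner, was also highest in cluster 9 (171 CPM), and so was the laminin receptor chain ITGA7 (316). Of the 1786 CPM summed over the 9 beta genes in cluster 9, itgb5 gave 1641. ITGA6, another laminin receptor chain, was highest in cluster 6 (80.7 CPM) and at 34.9 in cluster 8. ITGA8, which binds nephronectin, was highest in cluster 13 (88.6 CPM). itga3b, a laminin receptor chain, was at 31.0 CPM in cluster 7 and 26.2 in cluster 1. itgb1b.1, a beta 1 chain, was highest in cluster 12 (89.2 CPM), on 8 counts.

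Between the lineages, few of these genes differed. A gene was called where the authors' deposited adjusted p was under 0.05, and folds are BaP lineage over control lineage. In the authors' deposited tables, 7 member-cluster pairs were called higher in the BaP lineage and 1 lower. Of all pairs in these tables, 0.116% were called higher and 0.133% lower (0.248% in either direction). The members' shares of 1218 pairs were 0.575% higher and 0.0821% lower. Among detected pairs alone, 0.186% of all were called higher and 0.214% lower, and of the 847 member pairs 0.826% and 0.118%. CSPG5 gave 4 of the 7 higher calls, col1a2 gave 2 and ADAMTS14 gave 1, and the lower call was col9a3. The other 83 members were called in no cluster. Of all genes 1.29% were called higher in at least 1 cluster, against 3 of 87 members, and 1.01% lower, against 1 of 87. The share of pairs past an unadjusted p of 0.05 in the authors' deposited tables was 3.61% for members (33 higher, 11 lower, in 28 members) and 3.04% for all genes.

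The median deposited log2 fold change of detected members, beside that of all detected genes, was 0.01 and 0.00 for cluster 0, 0.04 and 0.08 for cluster 3, 0.03 and 0.03 for cluster 4 and 0.04 and 0.04 for cluster 6. It was -0.05 and 0.00 for cluster 7, 0.05 and 0.05 for cluster 8, 0.10 and 0.05 for cluster 9 and 0.09 and 0.09 for cluster 10. In the 3 smallest tables it was 0.14 and 0.14 (cluster 11), 0.15 and 0.15 (cluster 12) and 0.22 and 0.19 (cluster 13). Among genes above the median level of detected genes, the members' median and that of all genes were further apart in some clusters. The members' median was the higher one in cluster 6 (0.23 and 0.06) and cluster 9 (0.21 and 0.09). It was the lower one in cluster 12 (0.06 and 0.30), cluster 13 (0.22 and 0.34) and cluster 5 (-0.08 and 0.05). The deposited fold changes appear to be damped toward 0 for genes with few counts, which holds for most members.

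**Figure D2:**
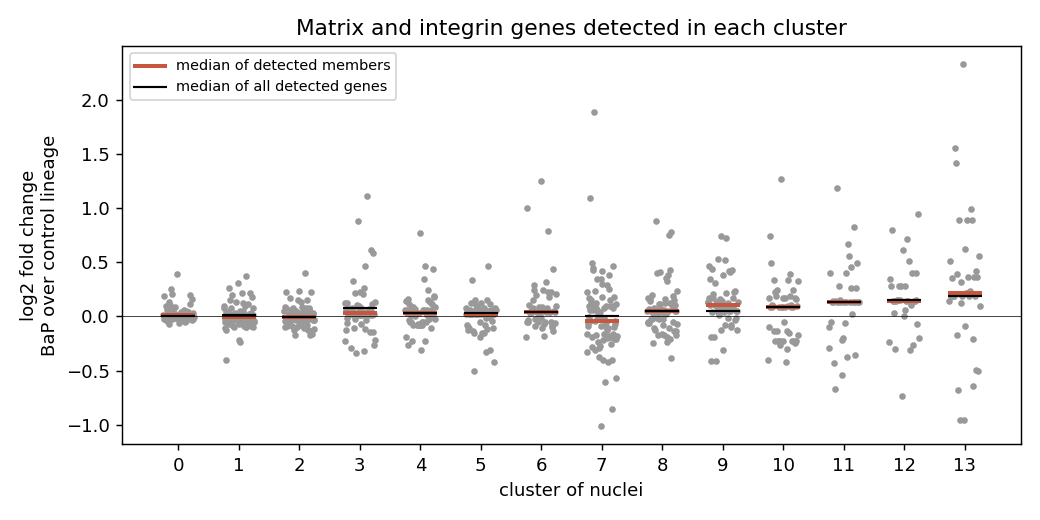
Deposited log2 fold change (BaP over control lineage, vertical axis) of every detected member (grey points) in each cluster (horizontal axis), with the median of the detected members (red bar) and of all detected genes (black bar). The members' medians run from -0.05 to 0.22, while col1a2 in cluster 7 (1.89) and CSPG5 in cluster 13 (2.33) lie far above them.

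CSPG5 was higher in the BaP lineage in 4 clusters. In cluster 0 its level was 316 CPM (272 to 364) in the control lineage and 472 (419 to 529) in the BaP lineage, on 187 and 287 counts. In the glutamatergic neuron-like cluster 3 it was 597 CPM (442 to 790) and 1181 (1110 to 1256), on 49 and 1022 counts. In cluster 4 it was 456 CPM (364 to 565) and 845 (767 to 928), and in cluster 10 it was 286 CPM (170 to 452) and 821 (690 to 970). The intervals of the lineages did not overlap in any of these 4 clusters, which speaks only to counting error. The 4 clusters were picked by calls on the same counts, so this adds no support to the calls. The authors' deposited tables gave a log2 fold change of 0.39 in cluster 0 (adjusted p = 0.0201), 0.88 in cluster 3 (adjusted p = 0.0108), 0.77 in cluster 4 (adjusted p = 0.00147) and 1.27 in cluster 10 (adjusted p = 0.0471). With the prior counts taken out these became 0.58, 0.98, 0.89 and 1.52. The call in cluster 10 was the one nearest to the threshold on its inner side. The share of all genes called higher was 0.148% in cluster 0, where 2 members were called higher, 0.3% in cluster 3, 0.296% in cluster 4 and 0.0164% in cluster 10, with 1 member each. The shares called lower, with no member among them, were 0.222%, 0.041%, 0.0903% and 0.0616% in the same order.

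CSPG5 was not called in the other 10 clusters. It was 403 CPM in the control and 518 in the BaP lineage in cluster 1, for which the authors' deposited table gave a log2 fold change of 0.31 (adjusted p = 0.248). It was 459 and 553 CPM in cluster 2, with 0.24 in the authors' deposited table (adjusted p = 0.722), and 289 and 562 in cluster 9, with 0.75 (adjusted p = 0.812). These 3 clusters and cluster 13 passed the unadjusted threshold of 0.05 without a call. Cluster 13 had no CSPG5 count in its 14 control-lineage nuclei (0 to 201 CPM) and 28 counts in the BaP lineage, or 358 CPM (238 to 517). The BaP-lineage level was 2.19 times the level that 3 control-lineage counts would give, which is no lower bound on the fold. The log2 fold change in the authors' deposited tables was below 0 in cluster 5 (-0.05) and cluster 11 (-0.54). It was 0.02 in cluster 6, 0.35 in cluster 7, 0.41 in cluster 8 and 0.62 in cluster 12. The oligodendrocyte-like and granule neuron-like nuclei were among those with the lowest CSPG5 levels in either lineage.

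**Figure D3:**
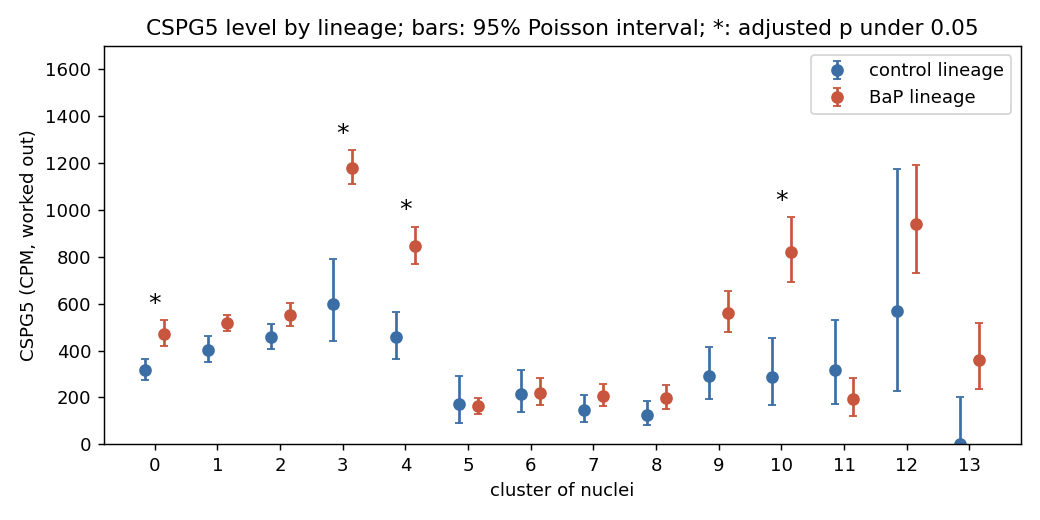
CSPG5 level in CPM (vertical axis) in the control lineage (blue) and the BaP lineage (red) for each cluster (horizontal axis), with 95% Poisson intervals as bars and a star where the deposited adjusted p was under 0.05. The stars stand at clusters 0, 3, 4 and 10, and the BaP-lineage level is highest in cluster 3 at 1181 CPM.

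Values of other genes that differed beside CSPG5 in these clusters are given here, and their part in its difference was not tested. In cluster 3 the median log2 fold change of all genes in the upper range of level was 0.25. It was 0.01 in cluster 0, 0.07 in cluster 4 and 0.14 in cluster 10. As a check of the arithmetic, worked-out totals of all genes were set against the expected UMIs. The BaP to control ratio of these was 1.3 in cluster 3, against 0.917, 1.021 and 1.036 in clusters 0, 4 and 10. In cluster 3 the control-lineage total fell below the expected UMIs and the BaP-lineage total lay above them. What this ratio reflects was not tested, and it is not read as a difference in expression. Its part in the CPM values by lineage in cluster 3 was not tested either. The deposited fold changes of that cluster also leaned upward, with 82.9% of detected genes above 0. At an unadjusted p below 0.05 in its deposited table, 1113 genes were higher in the BaP lineage and 79 lower. The part of this lean in the CSPG5 difference was not tested. Cluster 3 held 71 control-lineage and 638 BaP-lineage nuclei. The 6 glutamatergic neuron markers summed to 451 CPM in the control and 995 in the BaP lineage in cluster 3, with 2 and 0 markers at 0. They summed to 245 and 518 CPM in cluster 4 (4 and 1 at 0), 747 and 1063 in cluster 10 (3 and 0 at 0) and 265 and 315 in cluster 0 (none at 0). The 11 radial glia markers went from 463 to 1420 CPM in cluster 3 (6 and 0 at 0), but from 1304 to 961 in cluster 4 (2 and 1 at 0), from 1462 to 1075 in cluster 10 (3 and 2 at 0) and from 1690 to 1408 in cluster 0 (1 and 1 at 0).

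In cluster 7, 2 of the 29 collagens were called, col1a2 higher and col9a3 lower. col1a2 had 8 counts in the control lineage and 152 in the BaP lineage there, or 44.5 CPM (19.2 to 87.6) and 404 (342 to 474), a 9.09-fold difference in level. The authors' deposited table gave a log2 fold change of 1.89 (adjusted p = 0.0146). col9a3 went the other way, with 19 and 3 counts, or 106 CPM (63.6 to 165) and 7.98 (1.65 to 23.3). For col9a3 the authors' deposited table gave -1.01 (adjusted p = 0.0190). Of all genes in cluster 7, 0.0287% were called higher and 0.144% lower. A fibrillar and a cartilage collagen were thus called in opposite directions.

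col1a2 was also called in cluster 0, at a much lower level. It had 1 count in the control and 23 in the BaP lineage, or 1.69 CPM (0.0427 to 9.41) and 37.8 (24.0 to 56.7), and the authors' deposited table gave a log2 fold change of 0.26 (adjusted p = 0.00495). The genes of its partner chain alpha 1, named after their values were seen, had few counts there. col1a1a had 1 and 10 counts (log2 fold change 0.11, unadjusted p = 0.0234) and col1a1b had 0 and 6 (0.08, unadjusted p = 0.0251), and the authors' deposited table called neither. In cluster 13, where col1a2 had its second highest level, it had 4 and 8 counts, or 218 and 102 CPM, and a log2 fold change of -0.68 in the authors' deposited table, which was not called. adamts10, a protease tied to fibrillin microfibrils in mammals, lay just outside the threshold in cluster 0, with 1 and 17 counts and a log2 fold change of 0.19 in the authors' deposited table (adjusted p = 0.0545).

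More members of cluster 7 passed an unadjusted p of 0.05 without being called, and they were named after their values were seen. COL10A1 had 1 control-lineage and 42 BaP-lineage counts, and the authors' deposited table gave a log2 fold change of 1.09 (adjusted p = 0.418). Lower in the BaP lineage, with log2 fold changes from the authors' deposited table, were lamb2, a laminin beta 2 chain, with 19 and 7 counts (-0.86, adjusted p = 0.382), the laminin receptor chain itga3b with 12 and 5 (-0.61), NID1.1 with 12 and 6 (-0.57) and col8a2 with 8 and 5 (-0.38). The 4 laminins together had 245 CPM in the control and 85.1 in the BaP lineage in cluster 7, while the 29 collagens had 650 and 1061. The collagen sums rest on 117 and 399 counts, of which col1a2 gave 8 and 152 and COL10A1 gave 1 and 42. No collagen sum without these genes was worked out, so the sums do not show a rise of the family.

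Marker levels of several cell types in cluster 7 are set beside the collagen values, and their part in these was not tested. The 9 fibroblast markers summed to 178 CPM in the control and 189 in the BaP lineage, with 4 and 0 of them at 0. The 8 epithelial markers summed to 2829 and 2414 CPM (1 and 1 at 0), the 11 endothelial markers to 550 and 197 (0 and 1 at 0), the 6 immune markers to 1428 and 694 (2 and 0 at 0) and the 4 erythrocyte markers to 5508 and 1606 (1 and 1 at 0). The 6 skeletal muscle markers summed to 50.0 and 149 CPM (2 and 0 at 0), and the 11 radial glia markers to 2006 and 3526 (2 and 0 at 0). In cluster 0 the fibroblast markers summed to 27.0 and 36.2 CPM (4 and 3 at 0), and the erythrocyte markers to 1418 and 642 (0 and 1 at 0).

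ADAMTS14 was higher in the BaP lineage in the oligodendrocyte-like cluster 6, the cluster with its highest level. It had 16 and 107 counts, or 138 CPM (78.6 to 223) in the control and 406 (333 to 491) in the BaP lineage, a 2.95-fold difference in level. The authors' deposited table gave a log2 fold change of 1.00 (adjusted p = 0.0166), and the share of all genes called higher in this cluster was 0.271%, with 0.0616% called lower and no member among the latter. In the other 13 tables the deposited log2 fold change of ADAMTS14 lay between -0.33 in cluster 7 and 0.52 in cluster 13, and it was not called.

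In cluster 6, 2 other members passed an unadjusted p of 0.05 in the authors' deposited table and were not called. hapln2 had 36 and 241 counts, or 310 CPM (217 to 429) in the control and 915 (803 to 1038) in the BaP lineage, and the authors' deposited table gave 1.25 with an adjusted p of 0.0873. itgb5 had 33 and 154 counts, or 284 and 584 CPM, and the authors' deposited table gave 0.79 with an adjusted p of 0.194. The 9 oligodendrocyte markers together had 6784 CPM in the control and 10756 in the BaP lineage, with 1 at 0 in each lineage and 2 called higher in the authors' deposited table, and their part in the ADAMTS14 difference was not tested.

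**Figure D4:**
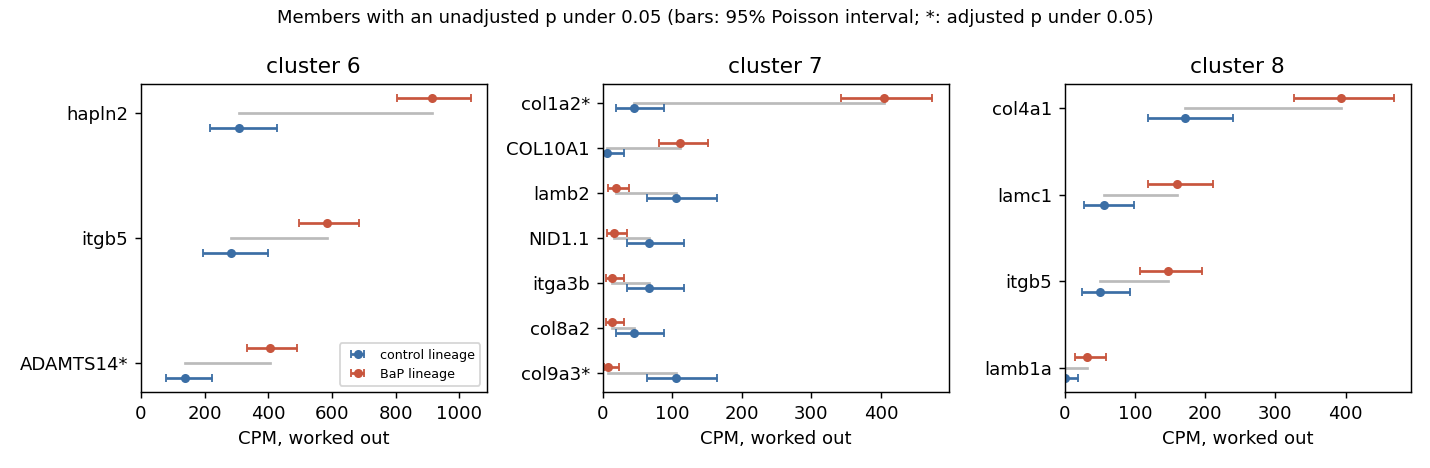
Level in CPM (horizontal axis) of each member with an unadjusted p under 0.05 in clusters 6, 7 and 8, in the control lineage (blue) and the BaP lineage (red), with 95% Poisson intervals and a star where the deposited adjusted p was under 0.05. All members shown for clusters 6 and 8 are higher in the BaP lineage, and cluster 7 has col1a2 at 404 CPM against 44.5 but col9a3 at 7.98 against 106.

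The basement membrane genes of cluster 8 gave no call. In the authors' deposited table of that cluster, 0.0616% of all genes were called higher and 0.0739% lower, with 0 members in either direction. At an unadjusted p under 0.05 there were 4 members higher and 0 lower, or 4.6% of members, against 2.58% of all genes. col4a1 had 34 and 123 counts, or 171 CPM (119 to 240) in the control and 393 (327 to 469) in the BaP lineage, and the authors' deposited table gave a log2 fold change of 0.88 (adjusted p = 0.119). lamc1 had 11 and 50 counts, or 55.5 and 160 CPM, and the authors' deposited table gave 0.78 (adjusted p = 0.276). lamb2 went the other way, with 8 and 3 counts (unadjusted p = 0.0563 in the authors' deposited table). Summed levels in the control and BaP lineage were 106 and 221 CPM for the laminins, and 60.5 and 57.5 CPM for the nidogens. By the authors' deposited table itgb5, with 10 and 46 counts, had 0.75 (adjusted p = 0.335), and lamb1a, with 0 and 10, had 0.43 (adjusted p = 1.0). The 11 endothelial markers summed to 1654 CPM in the control and 2611 in the BaP lineage with none at 0, the 8 mural markers to 459 and 486 (1 and 0 at 0) and the 4 erythrocyte markers to 45740 and 54136 (1 and 1 at 0). Their part in the col4a1 and lamc1 values was not tested, and in such a mixed cluster more vessel nuclei and more RNA per nucleus cannot be told apart.

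The alpha V beta 5 integrin genes were called in no cluster. itgb5 had an unadjusted p below 0.05, each time with a fold change above 0, in clusters 1, 3, 6, 8 and 9 according to the authors' deposited tables, and its smallest adjusted p was 0.0939. That value came from cluster 3, where itgb5 had 1 control-lineage and 117 BaP-lineage counts and a deposited log2 fold change of 1.11. In cluster 9, where it was most abundant, itgb5 had 131 and 510 counts, or 1307 CPM (1093 to 1552) and 1790 (1638 to 1953), and a deposited log2 fold change of 0.42. itgav passed the unadjusted threshold in clusters 2, 4 and 9 with deposited log2 fold changes of 0.40, 0.46 and 0.72, and its smallest adjusted p was 0.442. The deposited log2 fold change of itgb5 was above 0 in 12 clusters and below 0 in 2, with a lowest value of -0.26. That of itgav was above 0 in 10 clusters and below 0 in 4, with a lowest value of -0.33. Of all detected genes, 48.8% (cluster 2) to 82.9% (cluster 3) had a deposited log2 fold change above 0. The authors' deposited table of cluster 9 had 4 members higher and 0 lower at an unadjusted p below 0.05 (4.6% of members, against 2.45% of all genes) and none called, and there 0.0657% of all genes were called higher and 0.0451% lower.

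**Figure D5:**
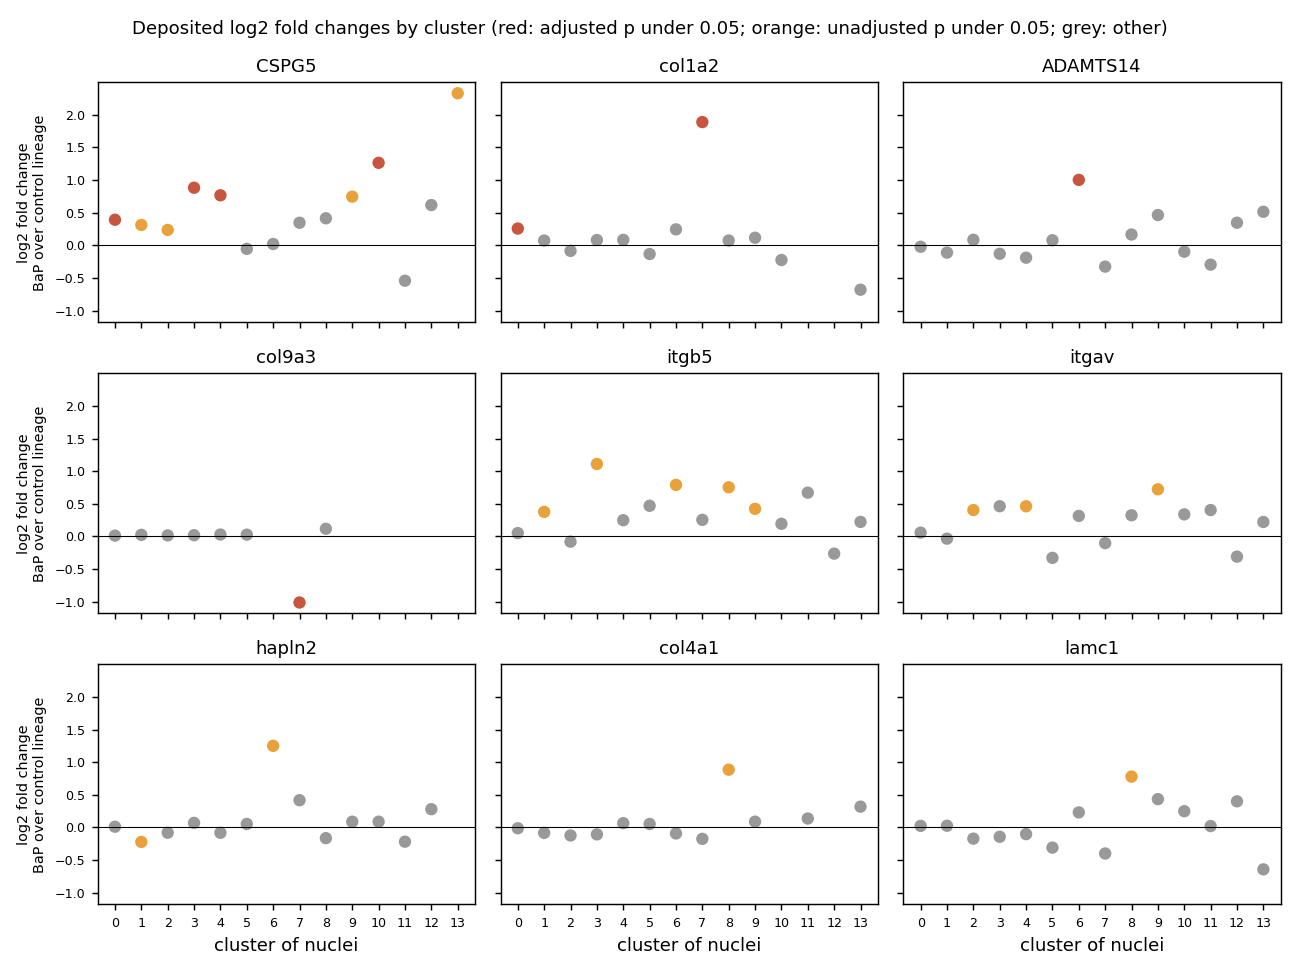
Deposited log2 fold change (BaP over control lineage, vertical axes) of 9 members in the clusters where each was detected (horizontal axes), in red for an adjusted p under 0.05, orange for an unadjusted p under 0.05 and grey otherwise. CSPG5 has 4 red points, col1a2 has 2, ADAMTS14 and col9a3 have 1 each, and itgb5, itgav, hapln2, col4a1 and lamc1 have none.

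No member was called in the remaining clusters. In cluster 1, 0.279% of all genes were called higher and 0.456% lower, and the authors' deposited table had 2 members higher and 2 lower at an unadjusted p below 0.05, or 4.6% of members against 6.31% of all genes. In cluster 2 these shares were 0.131% and 0.575%, with 2 members higher and 0 lower at the unadjusted threshold, or 2.3% against 5.45%. In cluster 5 they were 0.0164% and 0.0903%, with 0 members higher and 1 lower, or 1.15% against 2.41%. Cluster 11 had 0.0041% of all genes called higher and 0.0% lower, and clusters 12 and 13 had 0.0% in either direction. These 3 tables are the smallest, and 1 member passed the unadjusted threshold in them, CSPG5 in cluster 13.

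A few single values among the uncalled proteases and collagens may be set beside these, named after they were seen. mmp16 had 133 CPM in the control and 179 in the BaP lineage in cluster 0 (deposited log2 fold change 0.20) and 152 and 241 in cluster 4 (0.44), while mmp24 had 122 and 230 in cluster 3 (0.59). The authors' deposited tables gave each of these an unadjusted p below 0.05 and no call. ADAMTS20 had 108 and 64.6 CPM in cluster 1 (deposited -0.40), and COL25A1 had 501 and 325 CPM in cluster 5 (deposited -0.50). Neither was called, and in the authors' deposited tables of other clusters the log2 fold change reached 1.19 for COL25A1 and 0.80 for ADAMTS20. These higher values did not pass the unadjusted threshold, and that of COL25A1, in cluster 11, rested on 0 control-lineage and 13 BaP-lineage counts.

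The wider matrix machinery showed no call. A list of 122 further genes was read in the authors' deposited tables, made of 33 glycoproteins, 27 proteoglycans, 26 genes of matrix assembly and cross-linking, 6 protease inhibitors, 4 other matrix receptors and 26 focal adhesion genes. None of their 1708 gene-cluster pairs was called in the authors' deposited tables, where 0.116% of all pairs were called higher and 0.133% lower. Many of these genes had low levels, which limits what the lack of calls shows, and P4HA3 and hyal6 were at 0 CPM in every cluster. At an unadjusted p below 0.05, 42 were higher and 17 lower, which is 3.45% of them, against 3.04% for all genes. spock3, a testican proteoglycan, came nearest, in cluster 6 with 37 and 172 counts, and the authors' deposited table gave a log2 fold change of 0.81 and an adjusted p of 0.0522. tln2a, a talin that links integrins to actin, had 6 and 232 counts in cluster 3 (1.11 in the authors' deposited table, adjusted p = 0.0795). tnr, the tenascin of perineuronal nets, had 5 and 77 counts in cluster 9 (1.24 in the authors' deposited table, adjusted p = 0.202).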

How the data were processed

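Nuclei from 6 whole brains, 3 per lineage, were made into 10x Chromium 3' libraries, per the labels' protocols. Cell Ranger is named, with no version, in the submitters' processing notes. Per the series design text, libraries were aligned to a medaka genome and aggregated, and the lineages were compared within clusters. Not given in the sources used here are filters on nuclei, handling of doublets and free RNA, clustering, strand and intron counting, and the comparison's tool and unit of replication. The labels give a single sequencing batch.

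The authors deposited 14 tables of 24365 genes, of which 14025 have a symbol and 10340 only an identifier. Per the file headers each table has a p-value and false discovery rate (the adjusted p-value here) beside a log2 fold change and a log2 mean CPM. Direction was read from the group coding in the table names. Members could be found only by symbol, and the RefSeq gene table (another assembly than the authors') lists 53 of the 87, so no coordinates are given.

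Nuclei and counts per lineage were worked out from the authors' deposited log2 values and p-values. This assumes a prior count of 2 per nucleus in the mean level, one of 0.125 in the fold change, and nuclei as the units of a negative-binomial exact test; no source states these. Tested on simulated tables of 24365 genes modelled on clusters 4, 6 and 13, the nuclei were recovered exactly. Both counts were exact for 99.3%, 97.4% and 87.1% of genes with 1 to 20 counts, and the median error of larger totals was 0.5%, 1.4% and 10.8%. The 90th percentile of that error was 10.8%, 14.3% and 40.9%. The simulation shares the assumptions, so it tests the arithmetic only. Worked-out totals over all genes came to 90.0 to 132.8% of the expected UMIs, with a BaP to control ratio of 0.874 to 1.3. Levels are 2 to the power of the log2 mean CPM, less the value of undetected genes. Fold changes without prior counts needed at least 3 counts in each lineage.

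Named genes are the called members, the 2 members per family with the highest level, the 2 per cluster with the highest ratio to the other clusters (at least 20 counts), the 5 uncalled pairs with the smallest p and those nearest to the threshold. The members and lists were chosen with earlier results of these data known. No test was added. Alternatives changed the threshold, the adjustment, a minimum size of fold change, the filter on low values, the prior count, the members and the tables. Calculations used Python 3.11.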

Additional observations from a re-analysis of the deposited data

How the results depend on the processing

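Members called higher numbered 7 and lower 1 in the authors' deposited tables. The higher count was 2 and the lower 0 at an adjusted p under 0.01, 3 and 1 where a minimum size of 1 (log2) was asked as well, and 11 and 1 with p-values adjusted over genes above the median level. At an adjusted p under 0.1 it was 10 and 1, and with adjustment over detected genes 8 and 1. Chosen after seeing the data, leaving out CSPG5 gave 3 higher calls, and leaving out cluster 7 gave 0 lower calls. Leaving out cluster 3, or clusters 12 and 13, or the integrin-binding and ADAMTS-like genes, changed neither count by more than 1. The other matrix genes had 0 calls, but 2 higher at an adjusted p under 0.1, 1 with adjustment over detected genes and 2 over genes above the median level. The members gained were adamts10 in cluster 0, itgb5 in cluster 3 and hapln2 in cluster 6 at 0.1, with col4a1 in cluster 8 added over genes above the median level.

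Medians of the members moved by 0.1 or more (log2) in 5 clusters when limited to members above the median level, to 0.23 in cluster 3, -0.078 in cluster 5, 0.23 in cluster 6, 0.21 in cluster 9 and 0.19 in cluster 10, beside 0.25, 0.05, 0.06, 0.09 and 0.14 for all genes above that level. With undetected members included they were 0.0 in clusters 11, 12 and 13. With prior counts taken out, over 4 to 43 members, they were 0.15 in cluster 0, -0.22 in 1, -0.11 in 2, 0.80 in 3, -0.22 in 5, 0.48 in 6, -0.30 in 7, 0.34 in 8, 0.37 in 9, 0.31 in 10, -0.72 in 11, -0.0084 in 12 and -0.36 in 13. These medians rest on 8 members in cluster 3, 7 in cluster 11, 4 in cluster 12 and 5 in cluster 13. No median of all genes was worked out without prior counts, so the members' values have no background beside them. The cause was not tested.

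No paired analysis was possible because the tables hold no value per fish, and leaving out each fish was not run for the same reason. Depth limits most members: 151 of 1218 pairs had 20 counts or more. How reads of close copies, such as col1a1a and col1a1b or NID1 and NID1.1, were split is not given in the sources used here.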
